A study of Mus musculus with 24 samples.

Results

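The endothelin and renin-angiotensin genes of the mouse carotid artery were followed across 4 groups of libraries. The 9 members were chosen by name. They are the ligand gene Edn1, its receptor genes Ednra and Ednrb, the processing enzyme gene Ece1, the angiotensin precursor gene Agt, the converting enzyme gene Ace, and the receptor genes Agtr1a, Agtr1b and Agtr2. All 9 were found among the 55421 genes of each table, and all 9 passed the filter on low counts. Bulk RNA was sequenced from carotid arteries of female C57BL/6 mice, all ovariectomized, with 6 libraries per group. The groups, named by the library titles, were OVX (pellets without hormone, the vehicle group), E2 (17β-estradiol), E4 (estetrol) and TAM (tamoxifen). The titles decided the groups, because the treatment field of the E4 libraries carries the placebo entry. The labels give an age of 9 weeks and 3 weeks of treatment, whereas the study's methods describe ovariectomy at 4 weeks, pellets from 6 weeks of age and 2 weeks of exposure. The pellets held 75 µg of E2 or 1 mg of E4. The study set these unequal amounts for a similar estrogenic effect, and reported similar uterine, vaginal and thymic responses. The methods describe tamoxifen only for activating Cre in other mice. Each library is named by the C number of its title.

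Endothelin-1 is a peptide made mainly by endothelial cells. It is cut from a larger precursor by endothelin-converting enzyme (Ece1). The type A receptor (Ednra) on smooth muscle contracts the vessel, while the type B receptor (Ednrb) on endothelium releases nitric oxide and clears the peptide. Angiotensinogen (Agt) is cleaved by renin and then by angiotensin-converting enzyme (Ace) to angiotensin II, which constricts arteries through type 1 receptors. Mice have a pair of type 1 receptor genes, Agtr1a and Agtr1b, where humans have a single gene, and the type 2 receptor (Agtr2) is generally described as opposing type 1 signaling.

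Estrogen receptors bind a palindromic response element, and its half-sites are common in the genome. The 250 bases before the annotated start are printed for Edn1, Agt and Agtr2, the ligand, precursor and receptor genes that changed with E4. The sequences are from RefSeq (GRCm38.p6), 5′ to 3′ on the strand of the gene, and capitals mark motifs found by letter match.
Edn1 (chr13:42301226-42301475, + strand): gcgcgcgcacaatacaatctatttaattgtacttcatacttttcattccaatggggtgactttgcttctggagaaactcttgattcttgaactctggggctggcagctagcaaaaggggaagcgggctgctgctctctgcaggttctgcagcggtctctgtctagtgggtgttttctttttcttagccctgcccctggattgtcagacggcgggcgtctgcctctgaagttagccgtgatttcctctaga
Agt (chr8:124569707-124569956, - strand): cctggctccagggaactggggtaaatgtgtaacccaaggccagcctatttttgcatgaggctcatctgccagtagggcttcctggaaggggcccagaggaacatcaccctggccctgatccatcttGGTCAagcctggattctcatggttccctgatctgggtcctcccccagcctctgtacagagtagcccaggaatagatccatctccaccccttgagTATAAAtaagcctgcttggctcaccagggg
Agtr2 (chrX:21484374-21484623, + strand): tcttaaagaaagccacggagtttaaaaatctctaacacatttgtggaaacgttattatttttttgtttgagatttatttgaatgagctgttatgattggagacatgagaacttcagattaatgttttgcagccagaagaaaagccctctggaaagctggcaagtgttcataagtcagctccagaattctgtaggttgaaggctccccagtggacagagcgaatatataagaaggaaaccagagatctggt
The Agt window held a half-site, GGTCA, at positions -124 to -120 and a TATA box, TATAAA, at -30 to -25, where -1 is the base before the start. The printed Edn1 and Agtr2 windows held none of the 5 motifs searched. RefSeq promoters, each from 250 bases before to 50 after the start, were available for 8 of the 9 members, all but Agtr1a. The full response element GGTCANNNTGACC was in none of these and in 0.070% of 32851 promoters. The half-site TGACC, on either strand, was in 40.5% of all promoters, TATAAA in 13.6%, the AP-1 site TGANTCA in 7.81% and the GATA site AGATAA in 11.2%. A half-site within a full element was counted under both. The 8 members have 12 promoters in all, since Ece1 has 4 and Ace has 2. Counted by promoter as for the shares above, the half-site was in 4 of the 12 (33.3%), 1 each of Agt, Ece1, Ace and Agtr1b, and TATAAA in 3 (25%), 1 each of Agt, Ace and Agtr1b. The Agtr1b promoter held both, as the Agt promoter did, while in Ace they were in different promoters, and neither Ace nor Agtr1b was called. The GATA site was in 1 promoter, that of Edn1, at 9 to 14 bases after the start. A letter match describes the sequence and does not show that a factor binds there.

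The library totals ran from 24647246 to 64221401 counts. The level of a gene is its CPM, the reads of that gene as a proportion of its library, TMM-scaled, and a level that is compared between genes was divided by exon length (CPM per kb). The tissue label was checked against marker genes: 8 smooth muscle markers summed to between 2384 and 8594 CPM and 8 endothelial markers to between 592 and 1272 CPM in every library. The dissections also carried other tissue. Summed over 10 sympathetic neuron markers, the level was 38.9 CPM in OVX C5 and 223 CPM in TAM C35, whereas it lay between 2175 and 8242 CPM in the other 22 libraries. E4 C38 held 2956 CPM of thyroid and parathyroid markers, and without it the same number of members was called with E4. Values without OVX C5 or TAM C35 are given beside the results they moved most. Markers of other cell types also moved with E4 against OVX, where 4 of 8 adventitial fibroblast, 4 of 5 brown adipocyte, 6 of 6 B cell and 3 of 5 mast cell markers fell by edgeR, with median log2 fold changes of -0.59, -0.91, -2.05 and -0.93. Their summed levels ran from 3962 to 6298 CPM in OVX and 2762 to 4533 in E4 for fibroblasts, from 820 to 2314 and 561 to 894 for brown adipocytes, and from 5.71 to 32.2 and 3.69 to 7.35 for B cells. Of the vessel's own cells, 3 of 8 endothelial markers were called (Vwf higher, Emcn and Egfl7 lower, median log2 fold change of the 8 -0.09) and 3 of 8 smooth muscle markers (Myocd higher, Tagln and Smtn lower, median 0.15). The summed endothelial level ran from 592 to 946 CPM in OVX and from 667 to 1028 in E4. The top of the OVX range was OVX C5 for fibroblast, brown adipocyte and endothelial markers, and OVX C3 for B cell markers. The part of the fibroblast, brown adipocyte, B cell and mast cell markers in the results with E4 was not tested. In bulk tissue, fewer cells of a type and less RNA per cell cannot be told apart.

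The members covered a wide range of levels. Per kb of exon over all 24 libraries, Ace averaged 27.98 ± 6.65 CPM per kb (SD, n = 24), Ece1 23.5 ± 4.79, Ednrb 13.3 ± 2.30, Edn1 9.61 ± 2.97, Agtr1a 9.14 ± 3.06 and Ednra 5.28 ± 0.757. The other 3 genes were far lower, with Agt at 0.563 ± 0.278 CPM per kb, Agtr1b at 0.371 ± 0.136 and Agtr2 at 0.293 ± 0.111. Only the step from Ednra to Agt separated neighbors in this order without overlap, since the lowest Ednra library stood at 3.77 CPM per kb and the highest Agt library at 1.14. Both converting enzymes were thus abundant, whereas the counts of the angiotensin precursor and of the minor receptors were small, with 9 to 95 reads per library for Agt, 17 to 66 for Agtr1b and 16 to 92 for Agtr2. Relative spread was smallest for Ednra, with a coefficient of variation of 14.3%, and largest for Agt, at 49.4%.

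**Figure D1:**
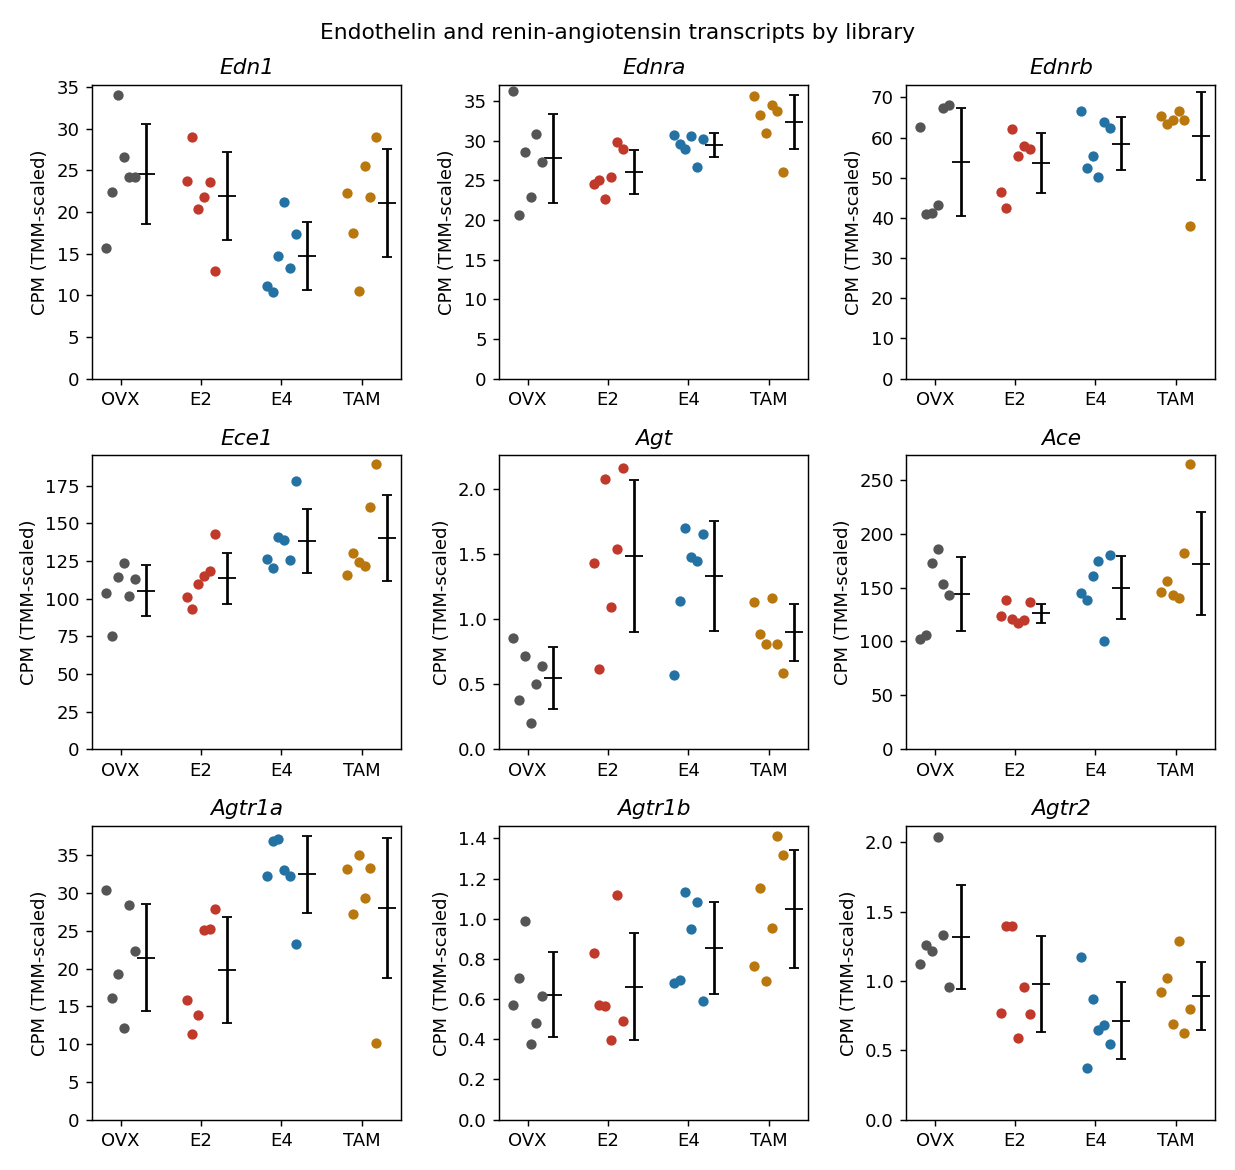
Level of each member in every library (points), in CPM after TMM scaling on a vertical axis that starts at 0, by group on the horizontal axis, with the mean ± SD of 6 libraries as a black mark to the right. Edn1 is lowest in E4 (14.7 ± 4.06 CPM), Agt is lowest in OVX (0.547 ± 0.238 CPM), and TAM C35 lies far from the other TAM libraries for Ednrb, Ace and Agtr1a.

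The comparison of E4 with OVX asked which transcripts estetrol changed in the artery. Agt and Ece1 rose and Edn1 and Agtr2 fell, where 9.65% of all genes rose and 12% fell. These were 4 of the 9 members (44.4%) at an adjusted p-value under 0.05 in edgeR's quasi-likelihood test, against 21.7% of the 24669 genes tested. The median log2 fold change of the 9 members was 0.11. Only Agt also passed a 2-fold change, a combined criterion that 2.5% of all genes met, and none of the 9 had groups that did not overlap, as 9.4% of all genes did.

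The ligand gene Edn1 (ENSMUSG00000021367, chr13:42301476-42307990, + strand, in GRCm38 as for all genes) was lower with E4. Its level ran from 15.7 to 34.1 CPM in OVX with a median of 24.2 CPM, and from 10.4 to 21.2 CPM in E4 with a median of 14.0 CPM. In 4 of the 6 E4 libraries Edn1 lay below every OVX library, so the groups overlapped slightly. The log2 fold change was -0.75 (SE 0.20, adjusted p = 0.0163 by edgeR), with a 95% interval from -1.17 to -0.32. The call was lost when the mean log2 level of the Schwann and satellite glia markers entered the fit as a covariate, with a log2 fold change of -0.61 and an adjusted p of 0.0941 by edgeR. With the endothelial markers as a covariate it was -0.75 (adjusted p = 0.0157 by edgeR). Antisense exons of Gm47118 cover 1.64% of the exon bases of Edn1, and its counts had decimals, left by shared reads, in 13 of the 24 libraries.

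Edn1 was not shown to differ from OVX under the other treatments. With E2 the level ran from 12.9 to 29.02 CPM with a median of 22.7 CPM, and the log2 fold change was -0.16 (95% interval -0.58 to 0.26, adjusted p = 0.806 by edgeR). With TAM it ran from 10.5 to 29.03 CPM with a median of 21.997 CPM, and the log2 fold change was -0.23 (95% interval -0.68 to 0.23, adjusted p = 0.588 by edgeR). Direct comparison of E4 with E2, at unequal amounts set for a similar estrogenic effect, gave a log2 fold change of -0.59 (95% interval -1.01 to -0.16, adjusted p = 0.0663 by edgeR), which missed the threshold. Without OVX C5, a library of neither group, the adjusted p was 0.0456, whereas with the glia or the adipocyte markers as a covariate it was 0.662 or 0.235.

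The enzyme gene Ece1 (ENSMUSG00000057530, chr4:137862237-137965229, + strand), which completes endothelin-1, was modestly higher with E4. It ran from 75.3 to 124 CPM in OVX with a median of 109 CPM, and from 120 to 178 CPM in E4 with a median of 133 CPM. In 5 of the 6 E4 libraries Ece1 was above every OVX library. The log2 fold change was 0.39 (SE 0.12, adjusted p = 0.0314 by edgeR). The call was lost without OVX C3, OVX C24, E4 C20, E4 C36 or E4 C39, each in turn, with log2 fold changes from 0.31 to 0.38 and adjusted p-values from 0.0509 to 0.0729, without the filter on low counts, at 0.0504, and with the glia markers as a covariate, at 0.180. In E2 the level ran from 93.2 to 143 CPM, with a log2 fold change against OVX of 0.11 (95% interval -0.14 to 0.37, adjusted p = 0.769 by edgeR). In TAM it ran from 116 to 190 CPM and the log2 fold change was 0.41 (95% interval 0.14 to 0.68, adjusted p = 0.0848 by edgeR). Without TAM C35 it was 0.32 (adjusted p = 0.119 by edgeR).

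With all libraries in the fit, the endothelin receptor genes did not pass the test in any comparison. Ednra (ENSMUSG00000031616, chr8:77663031-77724464, - strand) averaged 27.8 ± 5.60 CPM in OVX, 26.1 ± 2.75 in E2, 29.4 ± 1.53 in E4 and 32.4 ± 3.46 in TAM (SD, n = 6 each). Its log2 fold change with E4 was 0.08 (95% interval -0.15 to 0.30). The farthest pair was TAM against E2, with a log2 fold change of 0.30 (95% interval 0.08 to 0.52, adjusted p = 0.0890 by edgeR). It passed without TAM C35 (0.37, adjusted p = 0.0351 by edgeR) and with neuron or smooth muscle markers as a covariate (adjusted p = 0.0164 and 0.0206 by edgeR). Ednrb (ENSMUSG00000022122, chr14:103814625-103844402, - strand) averaged 53.9 ± 13.4 CPM in OVX, 53.6 ± 7.51 in E2, 58.5 ± 6.69 in E4 and 60.4 ± 11.05 in TAM. For TAM against OVX the log2 fold change of Ednrb was 0.16, and without TAM C35 it was 0.27 (adjusted p = 0.202 by edgeR). The OVX libraries were split, with OVX C3, C4 and C5 between 40.9 and 43.2 CPM and the other 3 between 62.6 and 68.1 CPM. The log2 ratio of Ednra to Ednrb, as counts, averaged -0.94 in OVX, -1.03 in E2, -0.98 in E4 and -0.88 in TAM. Per kb, Ednra stood at 0.405 times the level of Ednrb in OVX and 0.394 times in E4.

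Agt, the precursor of the angiotensin peptides, rose with both estrogens. Agt (ENSMUSG00000031980, chr8:124556534-124569706, - strand) ran from 0.199 to 0.854 CPM in OVX with a median of 0.567 CPM, from 0.572 to 1.70 CPM in E4 with a median of 1.46 CPM, and from 0.616 to 2.16 CPM in E2 with a median of 1.48 CPM. In 5 of 6 E4 libraries and in 5 of 6 E2 libraries Agt was above every OVX library. With E4 the rise was 2.39-fold (log2 fold change 1.26, SE 0.34, adjusted p = 0.0161 by edgeR). With E2 it was 2.68-fold (log2 fold change 1.42, SE 0.33, adjusted p = 0.0199 by edgeR). Agt was the 1 member called with E2 against OVX, 11.1% of the 9, against 3.88% of all genes tested. Without OVX C3 the E2 call was lost at an adjusted p of 0.0511, with a log2 fold change of 1.34. OVX C5, the library lowest in neuron markers, was also the lowest in Agt, and without it the log2 fold changes were 1.09 with E4 (adjusted p = 0.0249 by edgeR) and 1.25 with E2 (adjusted p = 0.0219 by edgeR).

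E4 and E2 were not shown to differ in Agt, with a log2 fold change of -0.17 (95% interval -0.84 to 0.51, adjusted p = 0.745 by edgeR). TAM libraries lay between, from 0.588 to 1.16 CPM with a median of 0.848 CPM, and overlapped the OVX group. The log2 fold change of Agt with TAM was 0.69 against OVX (95% interval 0.04 to 1.35, adjusted p = 0.212 by edgeR) and -0.73 against E2 (95% interval -1.36 to -0.10, adjusted p = 0.163 by edgeR). With the glia markers as a covariate, Agt was called lower with TAM than with E2 (adjusted p = 0.0246 by edgeR). The E4 comparison and the E2 comparison share the OVX libraries.

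Ace, which forms angiotensin II and degrades bradykinin, was not called in any comparison by the main test. Ace (ENSMUSG00000020681, chr11:105967945-105989964, + strand) averaged 144 ± 34.5 CPM in OVX, 126 ± 8.86 in E2, 150 ± 29.1 in E4 and 172 ± 47.8 in TAM. Every TAM library was above every E2 library, the lowest TAM library at 140 CPM and the highest E2 library at 138 CPM, an arrangement that 4.08% of all genes had in that comparison. TAM against E2 nevertheless gave a log2 fold change of 0.44 with an adjusted p of 0.114 by edgeR, and without TAM C35, the highest library, it was 0.28 (adjusted p = 0.224). With the neuron markers as a covariate the difference passed (adjusted p = 0.0410 by edgeR). Against OVX the TAM value was 0.25, and without TAM C35 0.10 (adjusted p = 0.683 by edgeR). Exons of the antisense gene Gm11651 cover 5.58% of the exon bases of Ace. The library kit keeps strand but the strand setting of the counting is not given in the sources used here, so reads of Ace and Gm11651 cannot be told apart there. The counts of Ace had decimals in 12 libraries.

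The principal angiotensin receptor gene Agtr1a (ENSMUSG00000049115, chr13:30336441-30382867, + strand) was higher in E4 without passing the threshold. Its level ran from 12.1 to 30.4 CPM in OVX with a median of 20.8 CPM, from 11.3 to 27.9 CPM in E2 with a median of 20.5 CPM, and from 23.2 to 37.2 CPM in E4 with a median of 32.7 CPM. In 5 of the 6 E4 libraries Agtr1a was above every OVX and every E2 library. The log2 fold change was 0.59 against OVX (95% interval 0.10 to 1.08, adjusted p = 0.0760 by edgeR) and 0.70 against E2 (95% interval 0.21 to 1.19, adjusted p = 0.0611 by edgeR). With DESeq2 these values were 0.61 (adjusted p = 0.0465) and 0.72 (adjusted p = 0.0250), so that both passed. In TAM the level ran from 10.1 to 35.01 CPM with a median of 31.3 CPM, and 5 of the 6 TAM libraries lay at 27.3 CPM or above. Against OVX, TAM gave a log2 fold change of 0.38 (adjusted p = 0.427 by edgeR), and without TAM C35 0.56 (adjusted p = 0.127 by edgeR).

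In each group, Agtr1a was lowest in the library that was lowest in sympathetic neuron markers. OVX C5 and TAM C35, at 38.9 and 223 CPM of summed neuron markers, had the lowest Agtr1a of their groups, 12.1 and 10.1 CPM. E2 C8, the lowest E2 library in neuron markers at 2175 CPM, was also lowest in Agtr1a at 11.3 CPM, and E4 C39, the lowest of the E4 libraries at 4814 CPM, had 23.2 CPM of Agtr1a. In glia markers E2 C8 was also the lowest of its group (598 CPM), whereas TAM C35 (3106 CPM) and E4 C39 (3971 CPM) were the highest of theirs and the lowest OVX library was C3 (1213 CPM). None of the 10 neuron markers was called with E4, but their median log2 fold change was 0.91 and the group medians of their sum were 4364 CPM in OVX, 4673 in E2, 7170 in E4 and 5706 in TAM. With the neuron markers as a covariate, the log2 fold change of Agtr1a with E4 was 0.29 against OVX (adjusted p = 0.308 by edgeR) and 0.56 against E2 (adjusted p = 0.0355 by edgeR). With the adipocyte markers these values were 0.35 (adjusted p = 0.126 by edgeR) and 0.23 (adjusted p = 0.536 by edgeR), and with the glia markers 0.40 (adjusted p = 0.276 by edgeR) and 0.36 (adjusted p = 0.662 by edgeR). Without OVX C5 it was 0.47 against OVX (adjusted p = 0.128 by edgeR). The part of nerve tissue in the Agtr1a values was not otherwise tested.

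**Figure D2:**
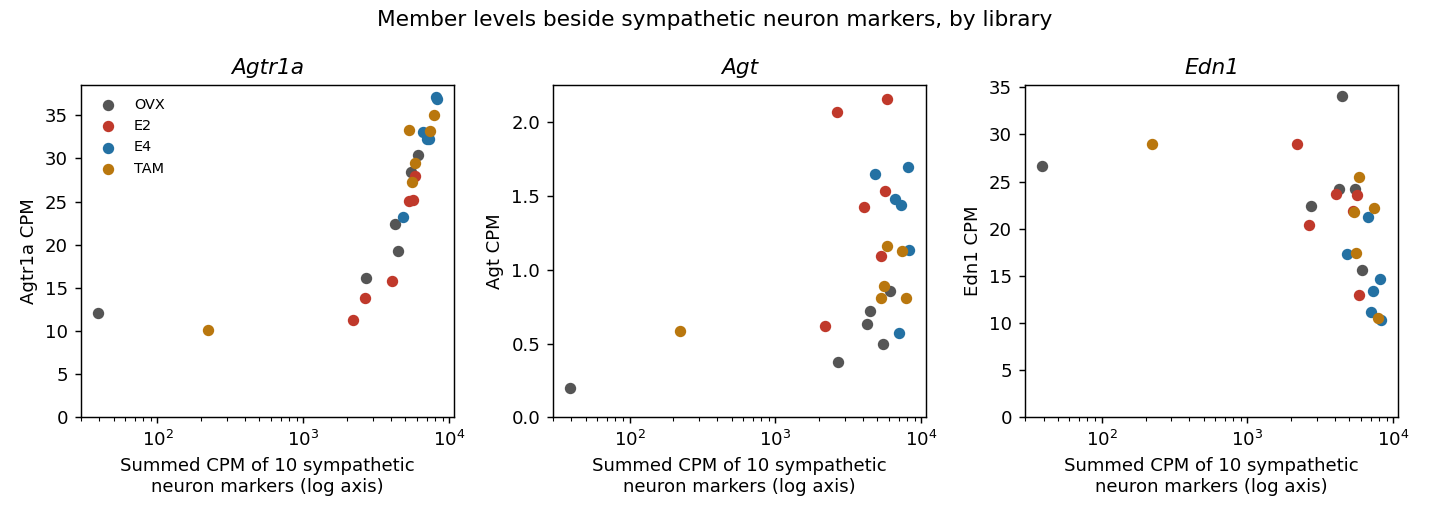
Level of Agtr1a, Agt and Edn1 in CPM (vertical axes, from 0) against the summed CPM of 10 sympathetic neuron markers (horizontal axis, log scale) in each of the 24 libraries, colored by group. OVX C5 (38.9 CPM of neuron markers) and TAM C35 (223 CPM) stand apart on the left with the lowest Agtr1a of their groups, and E4 C19 and C20, the highest in neuron markers, also have the highest Agtr1a.

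In each group, Edn1 was lowest in the library that was highest in sympathetic neuron markers. These were OVX C2 (15.7 CPM of Edn1, 6127 CPM of neuron markers) and E2 C29 (12.9 and 5839 CPM). In E4 and TAM they were E4 C19 (10.4 and 8242 CPM) and TAM C13 (10.5 and 7808 CPM). The library lowest in neuron markers had the highest Edn1 in E2 (C8, 29.02 CPM) and TAM (C35, 29.03 CPM). In OVX and E4 the highest Edn1 was in other libraries, OVX C4 and E4 C36. With the neuron markers as a covariate the log2 fold change of Edn1 with E4 was -0.67 and the call held (adjusted p = 0.0434 by edgeR). That of Agt was 0.91 and the call was lost (adjusted p = 0.0608 by edgeR), as it was with the glia markers (adjusted p = 0.0551 by edgeR).

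The other receptor genes were low. Agtr2 (ENSMUSG00000068122, chrX:21484544-21489164, + strand) ran from 0.954 to 2.03 CPM in OVX with a median of 1.23 CPM, and from 0.371 to 1.17 CPM in E4 with a median of 0.664 CPM. In 5 of the 6 E4 libraries it lay below every OVX library. The log2 fold change was -0.89 (SE 0.27, adjusted p = 0.0288 by edgeR). Agtr2 was highest in OVX C5, at 2.03 CPM, and without that library the value was -0.73 and the call was lost (adjusted p = 0.0624 by edgeR), as it was without OVX C3, E4 C19, E4 C36 or E4 C39. Whichever library was left out, the value lay between -1.09 and -0.73. With neuron markers as a covariate it was -0.61 (adjusted p = 0.126 by edgeR), and the call was also lost with glia or adipocyte markers. With E2 the level of Agtr2 averaged 0.977 ± 0.345 CPM, with a log2 fold change against OVX of -0.43 (adjusted p = 0.482 by edgeR), and with TAM 0.891 ± 0.243 CPM, with -0.56 (adjusted p = 0.210 by edgeR).

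Agtr1b (ENSMUSG00000054988, chr3:20314473-20367177, - strand), the second type 1 receptor gene, averaged 0.622 ± 0.212 CPM in OVX, 0.662 ± 0.266 in E2, 0.855 ± 0.228 in E4 and 1.05 ± 0.294 in TAM. Its largest log2 fold change was 0.73, with TAM against OVX (95% interval 0.19 to 1.27, adjusted p = 0.117 by edgeR). Agtr1a and Agtr1b are close paralogs, so a few reads may have been given to the wrong copy, although the counts of both were whole numbers in all 24 libraries. Per kb, Agtr1a was 26.1 times as abundant as Agtr1b in OVX, 22.8 times in E2, 29.4 times in E4 and 19.7 times in TAM. The log2 ratio of Agtr1a to Agtr1b was lowest in TAM C35, at 2.93. For the Ednra to Ednrb and Agtr1a to Agtr1b ratios, none of 12 two-sided exact permutation tests between groups passed the threshold, with a smallest unadjusted p of 0.182, adjusted to 0.777 over the 12, where the smallest possible p was 0.00216.

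**Figure D3:**
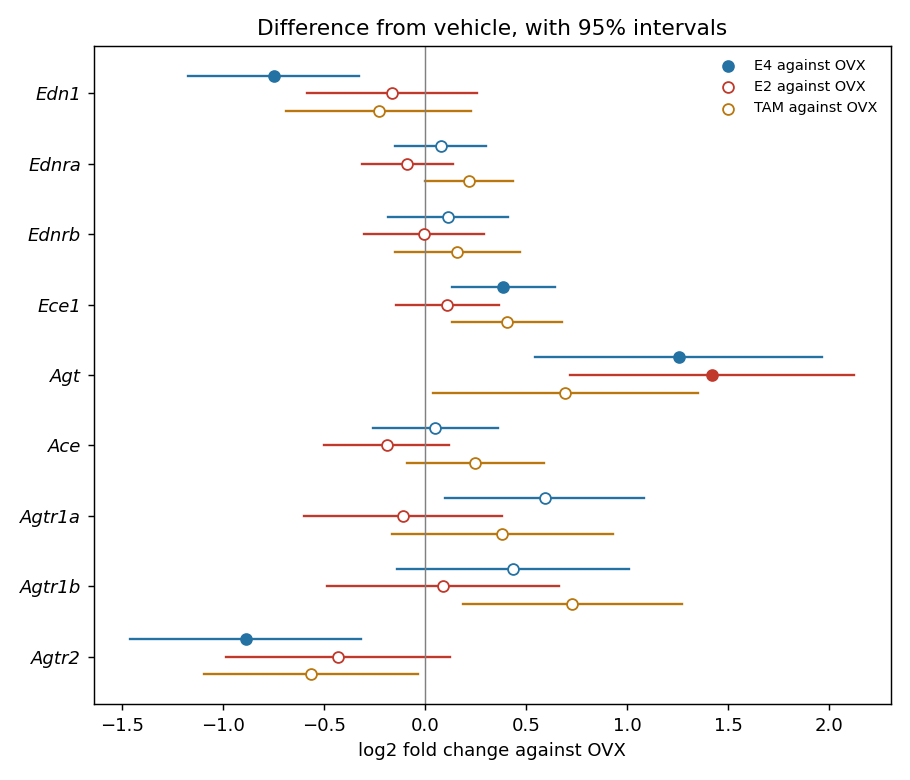
Log2 fold change of each member against OVX (points) with its 95% interval (lines) for E4, E2 and TAM, from edgeR, with filled points where the adjusted p-value is under 0.05. The filled points are Edn1, Ece1, Agt and Agtr2 with E4 and Agt with E2.

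Under tamoxifen no member passed the threshold. Against OVX 0 of 9 were called by edgeR, against 2.23% of 25056 genes tested, while 4 (Ece1, Agt, Agtr1b and Agtr2) had an unadjusted p under 0.05, against 21% of all genes. DESeq2 called 1, Ece1. The shares of all genes in this paragraph are those of edgeR, and those of DESeq2 are not given. Against E2 0 of 9 were called by edgeR and by DESeq2, against 6.4% of all genes, with 5 at an unadjusted p under 0.05, against 21.2% of all genes. Against E4 0 of 9 were called by edgeR and by DESeq2, against 0.343% of all genes, with 1 (Edn1) at an unadjusted p under 0.05, against 9.12% of all genes. Without OVX C5 and TAM C35, Ednra and Agtr1a were called higher with TAM than with E2. E4 against E2 gave 0 of 9 by edgeR, against 10.9% of all genes, with 3 (Edn1, Ece1 and Agtr1a) at an unadjusted p under 0.05, against 30.5% of all genes, and 2 (Edn1 and Agtr1a) with DESeq2.

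The title numbers fall into a lower and a higher series, and every group held both. Within the lower series the ratio of mean CPM, E4 over OVX, was -1.03 on the log2 scale for Edn1 (3 against 4 libraries), and within the higher series -0.49 (3 against 2). For Agt these values were 1.08 and 1.43, for Ece1 0.31 and 0.46, and for Agtr2 -0.80 and -0.87. For Agtr1a the values were 0.86 and 0.22. For E4 over E2 they were 1.37 and 0.18 for Agtr1a and -1.01 and -0.17 for Edn1. With number series as a covariate in the fit, Agtr1a was called higher in E4 than in E2, whereas Edn1 was not called.

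The rest of the pathway was read from fixed lists of other genes. Of 5 other endothelin genes, 3 were tested (Edn3, Ece2 and Mme, the last encoding neprilysin, which degrades endothelin and angiotensin peptides) and 0 were called by edgeR in any of the 6 comparisons. Without OVX C5, Ece2 was called higher with E4 than with E2 (log2 fold change 0.49, adjusted p = 0.0395 by edgeR). Edn2 and Kel were too low to test. In the 2 libraries low in neuron markers Edn3 was nearly absent, at 2.48 CPM in OVX C5 and 4.89 CPM in TAM C35, whereas its group means were 120 CPM in OVX and 172 CPM in E4. Mme averaged 73.7 ± 22.8 CPM in OVX and 52.0 ± 5.95 in E4, with a log2 fold change of -0.51 (adjusted p = 0.0574 by edgeR).

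Of 17 other renin-angiotensin genes in the annotation, 15 were tested, and with E4 against OVX 2 rose and 4 fell (40% of the 15, beside 21.7% of all genes). Mrgprd and Ctsg were too low to test. The enzymes Enpep (aminopeptidase A, which trims angiotensin II) and Thop1 (thimet oligopeptidase) had groups that did not overlap, as 9.4% of all genes did. Enpep fell from 24.6 ± 6.08 to 16.5 ± 1.65 CPM (log2 fold change -0.58, adjusted p = 0.0111 by edgeR), and Thop1 rose from 16.3 ± 2.68 to 23.3 ± 2.21 CPM (log2 fold change 0.51, adjusted p = 0.0108 by edgeR). Nln (neurolysin) rose by a log2 fold change of 0.27, a call that was lost without OVX C5 (0.22, adjusted p = 0.0556 by edgeR). Mas1, the receptor of angiotensin-(1-7), fell from 0.921 ± 0.405 CPM in OVX to 0.302 ± 0.104 in E4 (log2 fold change -1.62, adjusted p = 0.00571 by edgeR). It also fell with TAM (log2 fold change -1.30, adjusted p = 0.0351 by edgeR, but 0.0662 without OVX C5 and TAM C35), and stood at 0.464 ± 0.243 CPM with E2 (log2 fold change -0.98, adjusted p = 0.120 by edgeR).

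The mast cell chymases, which can form angiotensin II without Ace, were lower with E4. Mcpt4 fell from 29.2 ± 13.04 to 12.7 ± 3.59 CPM (log2 fold change -1.21, adjusted p = 0.00332 by edgeR), and Cma1 from 19.4 ± 8.26 to 11.7 ± 2.60 CPM (log2 fold change -0.72, adjusted p = 0.0263 by edgeR). Without OVX C5 these values were -0.94 (adjusted p = 0.00340 by edgeR) and -0.47 (adjusted p = 0.0528 by edgeR), so that the call of Cma1 was lost. Of 5 mast cell markers, 3 fell with E4 (Cpa3, Fcer1a and Ms4a2), and their summed level ran from 24.6 to 72.7 CPM in OVX and from 20.95 to 34.3 CPM in E4. The 72.7 CPM was in OVX C5, and the next highest OVX library, C25, held 46.8 CPM. The part of mast cell number in the chymase values was not tested.

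Renin itself (Ren1) was at 0.677 ± 0.397 CPM in OVX and 1.54 ± 0.576 CPM in E2, with a log2 fold change of 1.20 that missed the threshold (adjusted p = 0.0599 by edgeR). Without OVX C5 it was 1.48 and passed (adjusted p = 0.00976 by edgeR). In E4 against E2, Nr3c2, the mineralocorticoid receptor, rose by a log2 fold change of 0.28 and Prcp and Cma1 fell, by 0.43 and 0.85 on the log2 scale.

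**Figure D4:**
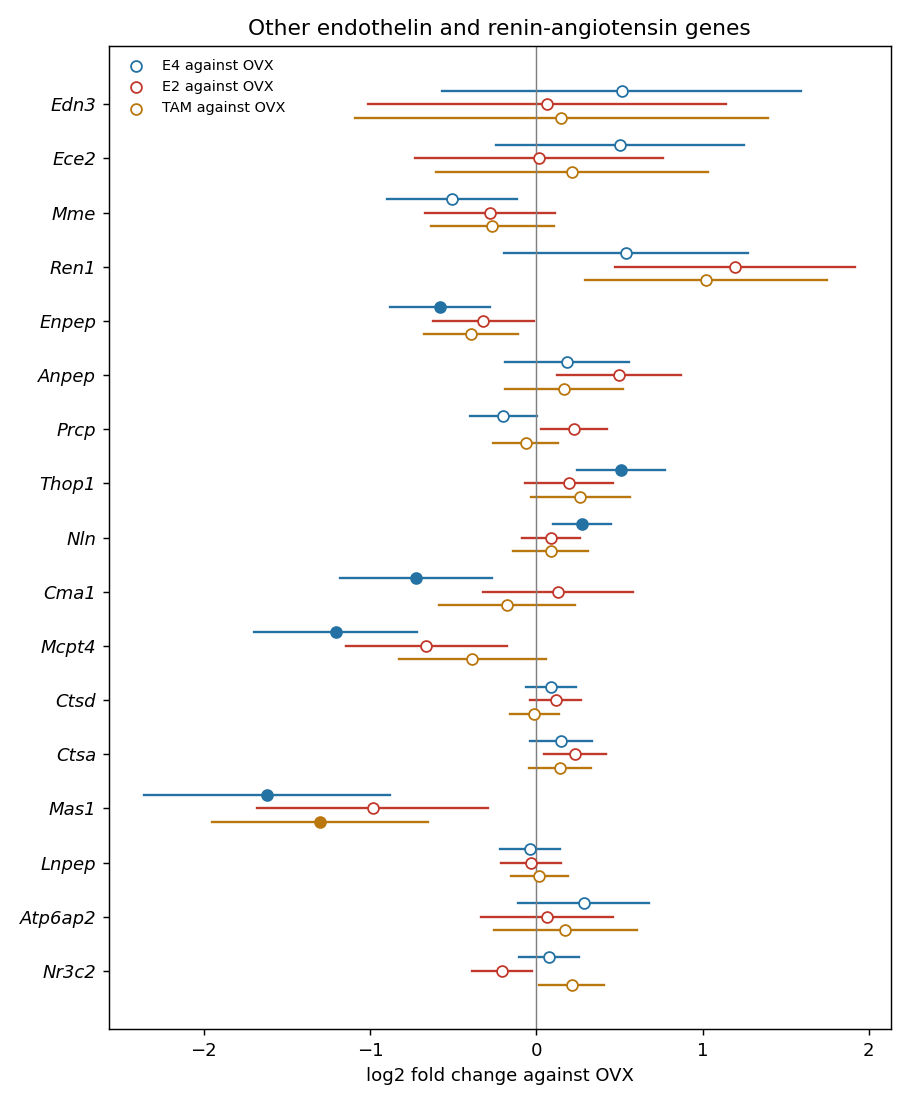
Log2 fold change against OVX (points) with its 95% interval (lines) for 17 other endothelin and renin-angiotensin genes, for E4, E2 and TAM, from edgeR, with filled points where the adjusted p-value is under 0.05. Mas1 and Mcpt4 show the lowest values with E4 (-1.62 and -1.21), and Mas1 is also filled for TAM (-1.30).

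Of 23 genes that couple these receptors to the cell (G protein subunits, phospholipase C, exchange factor and arrestin genes), all were tested, and with E4 against OVX 5 rose and 2 fell (30.4% of the 23, beside 21.7% of all genes). Arhgef11, a guanine nucleotide exchange factor, rose with a log2 fold change of 0.60 (adjusted p = 0.00517 by edgeR). It was lowest in OVX C5, E2 C8, E4 C39 and TAM C35, in each group the library lowest in neuron markers, and without OVX C5 the log2 fold change was 0.53 (adjusted p = 0.00831 by edgeR). Gna12, Gnai2, Plcb3 and Arrb1 rose by 0.24 to 0.36, and without OVX C5 the calls of Gna12 and Arrb1 were lost. Rgs5, a regulator that shortens G protein signaling in mural cells, fell with both estrogens, with log2 fold changes of -0.40 with E4 (adjusted p = 0.00752 by edgeR) and -0.43 with E2 (adjusted p = 0.00894 by edgeR), and in both the groups did not overlap, as for 9.4% and 2.78% of all genes. Arrb2 fell against OVX and against E2, with log2 fold changes of -0.24 and -0.49 for E4. Macrophage markers moved as well, with 5 of 6 higher in E2 than in OVX and 6 of 6 lower in E4 than in E2 (median log2 fold change -1.02), and their part in the Arrb2 values was not tested.

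The genes whose log2 CPM was most like each member over the 24 libraries were found among 19514 genes of at least 1 CPM on average. Agtr1a was most like Gnas (Pearson r = 0.97), Ece1 was close to Dag1 (r = 0.95), Ace most like the overlapping Gm11651 (r = 0.94) and then Lamb2 (r = 0.91), Edn1 most like Ntf3 (r = 0.92), and Ednrb most like Itgb8 (r = 0.91). The likeness was weaker for Ednra with Sap18 (r = 0.87), Agt with Mtss1l (r = 0.86), Agtr2 with Gm5117 (r = 0.85) and Agtr1b with Pdia5 (r = 0.70). The points share the 4 treatments and the 2 libraries low in neuron markers, so these values are descriptions only.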

How the data were processed

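RNA of 24 mouse carotid arteries was sequenced as paired reads of 150 bases. Per the labels, the libraries were made with a stranded mRNA kit, and the submitters' processing notes name bcl2fastq, Trim Galore, Bowtie2 and featureCounts. For every library the authors deposited a separate table of expected counts, which had not been scaled. Decimals, which shared reads leave, were rounded to whole numbers. Of 55421 genes, 55240 are in GENCODE mouse release M21 (GRCm38), used for names and coordinates. Library totals were 24647246 to 64221401 counts. Depth therefore limits the members with few reads.

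Counts were tested with edgeR 4.0.16 (quasi-likelihood test, TMM scaling, default filter on low counts, Benjamini-Hochberg adjustment over all genes tested) in R 4.3.3. OVX, E2 and E4 shared a fit of 18 libraries, and TAM was tested in a fit of 24. A gene was called at an adjusted p-value under 0.05, and a 2-fold change (absolute log2 fold change over 1) was also counted because the study's methods use it. Standard errors were derived from the F statistic. Receptor ratios (of counts, with 0.5 counts added to each) were compared by exact permutation tests with scipy 1.17.1, adjusted over 12 tests. Number series, marker levels, DESeq2 1.42.0, other scalings and filters, and leaving out libraries were alternatives. Each marker covariate was the mean log2 CPM of its list (0.5 CPM added), not the summed CPM printed in the text. For adipocytes the white adipocyte list was used. On simulated counts for E4 against OVX (24409 genes), 85% of 2-fold and 96% of 4-fold changes were called, with 16 unchanged genes called. The changed genes were drawn from those averaging at least 1 CPM. Agt (1.06 CPM) and Agtr2 (0.975 CPM) lie near that floor and Agtr1b (0.797 CPM) below it. Changes under 2-fold were not simulated. The members and lists were chosen with earlier results of these data known. The text names all 9 members, the genes of the pathway lists that passed in at least 1 comparison or are accounted for gene by gene, and the genes most like each member. Ren2 was not analysed here, and a few results are not reported here. Where nothing says that libraries were made independently, p-values measure the spread between these samples.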

Additional observations from a re-analysis of the deposited data

Results flagged for a closer look

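Among 44 groups of 6 libraries, 7 held a library far from the nearest of the others, where chance gives about 1 in 20, or 2.2. TAM C35 accounts for 4. Its Ednrb level was 37.9 CPM against 63.2 to 66.6 in the other TAM libraries, its Ace level was 265 CPM against 140 to 182, its Agtr1a level was 10.1 CPM against 27.3 to 35.01, and its log2 ratio of Ednra to Ednrb was -0.54. This is also the TAM library lowest in neuron markers (223 CPM) and highest in smooth muscle markers (8594 CPM). E4 C39 had the highest Ece1 of its group, 178 CPM against 120 to 141, and the lowest Agtr1a, 23.2 CPM against 32.2 to 37.2. It held 3971 CPM of Schwann and satellite glia markers, the most of the E4 group. OVX C5 had 2.03 CPM of Agtr2 against 0.954 to 1.33. It was the OVX library lowest in neuron markers (38.9 CPM). It was also the highest of its group in fibroblast (6298 CPM), white adipocyte (8250), brown adipocyte (2314), macrophage (830), endothelial (946) and mast cell (72.7) markers. Whether tissue content accounts for these values was not tested.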

How the results depend on the processing

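Directions and calls of the members called by the main test were followed through 30 alternatives. The direction of each held in all 30. The call held in 29 for Edn1, 28 for Agt, 23 for Ece1 and 21 for Agtr2 with E4 against OVX, and in 29 for Agt with E2 against OVX. Members called with E4 against OVX numbered 4, but 2 with neuron markers and 0 with glia markers as a covariate, a setting in which all called genes fell from 5348 to 1598. For E4 against E2 the count of 0 became 2 (Edn1 and Agtr1a) with DESeq2, with only the 2 groups compared, with smooth muscle markers or without OVX C5. The count became 1 with number series or neuron markers (Agtr1a) and with endothelial markers (Ece1). For TAM against OVX it became 1 with DESeq2, neuron or endothelial markers. For TAM against E2 it became 2 with neuron markers (Ednra and Ace) and 1 with glia markers (Agt). It also became 2 (Ednra and Agtr1a) with smooth muscle markers or without both OVX C5 and TAM C35, a pair chosen after seeing the data. Leaving out 1 library gave 2 to 5 members for E4 against OVX (2 without OVX C3, E4 C36 or E4 C39), 0 to 1 for E2 against OVX (0 without OVX C3), 0 to 2 for E4 against E2 (2 without OVX C5 or E2 C29, 1 without E4 C36 or E4 C39) and 0 to 1 for TAM against E2 (1 without TAM C35). The cause was not tested. Except for the glia setting with E4 against OVX, the number of all genes called in the same setting is not given. These counts therefore have no share of all genes beside them.

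Changes of sign occurred only in values that were not called. With glia markers they were, as log2 fold changes, Ednra -0.00041 and Ednrb -0.054 (E4 against OVX), Ednrb 0.11 and Agtr1a 0.045 (E2 against OVX), Ednrb -0.16 (E4 against E2), and Edn1 0.12, Ednrb -0.061 and Agtr2 0.20 (TAM against E2). With endothelial markers they were Ednrb 0.0083 and Agtr1a 0.0048 (E2 against OVX) and Ece1 -0.12 (TAM against E4). With smooth muscle markers they were Ace -0.012 (TAM against OVX), Ece1 -0.11 and Ace -0.024 (TAM against E4). With neuron markers they were Ednra -0.032 (E4 against OVX), Agtr1b -0.010 (E2 against OVX) and Ece1 -0.039 (TAM against E4). With adipocyte markers they were Ednrb 0.033 and Agtr1a 0.12 (E2 against OVX), Agtr1a -0.046 and Agtr2 0.20 (TAM against E2). Without OVX C5 and TAM C35 they were Agtr1b -0.021 (E2 against OVX) and Ece1 -0.088 (TAM against E4). Leaving out 1 library gave Ace -0.032 to 0.14 (E4 against OVX), Ednrb -0.079 to 0.074, Agtr1a -0.23 to 0.014 and Agtr1b -0.13 to 0.27 (E2 against OVX), Edn1 -0.18 to 0.072 (TAM against E2), Ednrb -0.0049 to 0.14 and Ece1 -0.088 to 0.10 (TAM against E4). For differences of the log2 ratio of Ednra to Ednrb it gave -0.12 to 0.043 (E4 against OVX), -0.036 to 0.10 (E4 against E2) and -0.013 to 0.15 (TAM against OVX), and for Agtr1a to Agtr1b -0.41 to 0.13 (TAM against E2).

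No paired analysis was possible because each title number occurs in a single group. Among E4, E2 and OVX, the members with under 100 reads per library (Agt, Agtr1b and Agtr2) carried the widest intervals.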
